A study of Mus musculus with 11 samples.

Results

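Open chromatin at the promoters of annotated long non-coding RNAs (lncRNAs) was examined in midbrain dopaminergic (DA) and hindbrain serotonergic (5-HT) neurons of the mouse embryo. The promoters were those of genes that the GENCODE annotation of mm9 gives as lincRNA, antisense or processed_transcript. A region was retained when it overlapped, by at least 1 bp, the promoter of such a gene, taken as 1 kb before and 100 bp after a transcription start site (TSS), and no TSS of a protein-coding gene lay within 2 kb of that TSS. Of 131942 regions, 831 met these criteria. They belonged to 766 lncRNA genes, and the other 1859 of the 2625 lncRNA genes with a TSS away from coding TSSs had no region. Promoters of protein-coding genes with no lncRNA TSS within 2 kb served as the comparison and held 15138 regions.

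ATAC-seq, in which a transposase cuts accessible DNA, had been carried out at E14.5 on 3 DA libraries and 2 5-HT libraries, each from its own FACS experiment. DA neurons were GFP+ cells of TH-GFP embryos, in which the rat Th promoter drives GFP, sorted from ventral mesencephalons. 5-HT neurons were YFP+ cells of Mash1-CRE x ROSA YFP embryos, sorted from the rhombomeres r1 to r3 of the hindbrain. Embryos of both genotypes came from transgenic males, in the TH-GFP line on a C57BL/6J background, mated with Swiss wild-type females. Tissue of several embryos was pooled for each library, so a library averages over embryos. GFP marks the cells in which the transgenic promoter is active. Mash1 is a proneural gene of many progenitors, so the YFP+ cells depend on the dissected region as well as on the reporter. In pooled cells, fewer cells with an open promoter and a less accessible promoter in each cell cannot be told apart.

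Many lncRNA promoters resemble coding promoters in their transcription by RNA polymerase II, and some also in their CpG content and accessible chromatin. The activity of lncRNA promoters is on average lower and more restricted to a cell type. Some lncRNAs start near a coding gene and share its open region, which is why promoters close to coding TSSs were set aside here. Others act at known places, such as the nuclear bodies built on Neat1, the imprinted locus of Meg3 or the host transcripts of small nucleolar RNAs.

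The annotation gives only lincRNA and processed_transcript at the level of the gene, with 0 genes of type antisense, while 1873 transcripts of these genes are of type antisense. By symbol, RefSeq (GRCm38.p6) lists the genes of 534 of the 831 regions. For 443 of them it gives a lncRNA and for 51 a protein-coding gene, among them Oaz2, the ornithine decarboxylase antizyme 2, and Enho, the energy homeostasis peptide. The label therefore holds for most of the regions that could be looked up, and the 51 were kept because the rule uses the GENCODE type.

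Every region carries 1 score per library, which is 0 where no peak was called. The libraries held 52861, 93055 and 94351 peaks (DA replicates 1 to 3) and 38772 and 22879 peaks (5-HT replicates 1 and 2). All 3 DA libraries thus had more peaks than either 5-HT library. By the methods of the study, each 5-HT library also came from fewer sorted cells than any DA library. How deeply each library was sequenced is unknown, and no source names the scale of the score. Intervals of shares below are 95% Wilson intervals and cover counting error only.

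The identity of the libraries was checked at coding promoters of marker genes. Of 9 DA markers, 9 had a peak at a promoter in each DA library and 6 in each 5-HT library. Th, which encodes the rate-limiting enzyme of dopamine synthesis, scored 9.91, 10.6 and 8.45 in the DA libraries and 0 in both 5-HT libraries. Lmx1a, a regulator of the DA lineage, was likewise at 0 in both 5-HT libraries. Of 8 5-HT markers, 6, 7 and 6 were open in the DA libraries, while 5-HT replicate 1 had 6 and 5-HT replicate 2 had 4. The serotonergic factor Fev had a peak in 5-HT replicate 1 alone, with a score of 3.88, and the serotonin transporter gene Slc6a4 was open in all DA libraries but not in a 5-HT library. Tph2, the gene of the serotonin-synthesizing hydroxylase, was open in all 5 libraries, with 7.09 and 3.59 in the 5-HT libraries, as was Gata3, with 5.17 and 7.51. Gata2 was open in DA replicate 2 and 5-HT replicate 1. Slc18a2 and Ddc, which both cell types use, are counted among the markers of both. Of 3 GABAergic markers, 3 had a peak in each library but 5-HT replicate 2, which had 2, and neither of 2 microglial markers had a peak in any library. In the order of the 5 libraries, the peaks numbered 1, 1, 1, 1 and 0 for 2 glutamatergic markers, 0, 2, 0, 0 and 0 for 3 noradrenergic markers and 3, 3, 3, 3 and 2 for 3 radial glial markers. They numbered 1, 2, 2, 1 and 0 for 2 astrocyte markers, 1, 2, 2, 2 and 2 for 3 oligodendrocyte markers and 1, 1, 1, 1 and 0 for 2 endothelial markers. Markers of other cell types thus also tended to be open least often in 5-HT replicate 2. The part of other cell types in the results below was not tested.

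LncRNA promoters were open in more genes of the DA libraries than of the 5-HT libraries. A peak lay at a promoter of 19.8% (18.3 to 21.4), 26.3% (24.6 to 28.0) and 24.3% (22.7 to 25.9) of the 2625 lncRNA genes in DA replicates 1, 2 and 3. In 5-HT replicates 1 and 2 the share was 17.4% (16.01 to 18.91) and 10.7% (9.62 to 12.0). The groups did not overlap, and the mean share was 23.5% ± 3.31 (SD, n = 3) in DA neurons and 14.1% ± 4.71 (SD, n = 2) in 5-HT neurons. The difference of 9.38 percentage points gave p = 0.1 in a two-sided exact permutation test, the smallest value that 3 against 2 libraries allow. Without 5-HT replicate 2 the difference was 6.04 percentage points.

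Coding promoters were open more often in every library, in 57.5%, 61.5% and 59.8% of 21811 genes in the DA libraries and in 55.9% and 47.6% in the 5-HT libraries. A gene counted as open with a peak at the promoter of any of its TSSs. The coding genes held 66421 TSSs and the 2625 lncRNA genes 3585, so a coding gene had more TSSs on average. This bears on the gap and on the odds ratios. The log2 odds ratio of an open promoter at lncRNA genes against coding genes was -2.46, -2.16 and -2.22 for DA replicates 1 to 3, and -2.59 and -2.91 for the 5-HT libraries. LncRNA promoters were thus less often open than coding promoters in each library. On the odds scale the margin was wider in both 5-HT libraries than in the DA libraries. The mean was 0.47 higher on the log2 scale in DA neurons (-2.28 ± 0.16, SD, n = 3) than in 5-HT neurons (-2.75 ± 0.23, SD, n = 2), again with p = 0.1 in the exact permutation test. Without 5-HT replicate 2 the difference was 0.31, and with lincRNA genes only it was 0.24.

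The order of the groups turned when each library was reduced to its top 22879 peaks by score, which is all that 5-HT replicate 2 had. LncRNA genes with an open promoter then made up 9.75%, 9.98% and 9.79% in the DA libraries, and 11.5% and 10.7% in the 5-HT libraries. The difference was -1.28 percentage points, with p = 0.1 in the exact permutation test and no overlap between the groups. Coding genes turned too, with 43.9%, 44.1% and 42.2% in the DA libraries and 47.4% and 47.6% in the 5-HT libraries. Their difference was -4.10 percentage points, also with p = 0.1 in the exact permutation test. The log2 odds ratios came to -2.86, -2.83 and -2.75 in DA neurons and to -2.79 and -2.91 in 5-HT neurons, with overlapping groups, a difference of 0.04 and p = 0.6 in the exact permutation test. At this setting, lncRNA promoter regions made up 1.10%, 1.12% and 1.11% of the peaks in the DA libraries, and 1.29% and 1.23% in the 5-HT libraries. This share was already lower in the DA libraries with all peaks, at 0.989%, 0.780% and 0.702% against 1.18% and 1.23%.

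Of the 831 regions, 491 (59.1%, 55.7 to 62.4) had a peak in all 3 DA libraries, against 34.6% of all regions, and form the DA repertoire at lncRNA promoters. DA-only regions, with a peak in 3 of 3 DA and 0 of 2 5-HT libraries, numbered 97 (11.7%, 9.66 to 14.0), against 13.4% of all regions. Shared regions, with a peak in all 5 libraries, numbered 239 (28.8%, 25.8 to 31.9), against 12.8% of all regions. The 5-HT repertoire, with a peak in both 5-HT libraries, held 256 regions (30.8%, 27.8 to 34.0), against 14.3% of all regions. There were 0 5-HT-only regions, which allows a share of up to 0.361%, and the share over all regions was 0.389%. The counts depended on single libraries. Without 5-HT replicate 1 there were 234 DA-only regions (28.2%, against 20.8% of all regions) and without DA replicate 1 there were 167 (20.1%, against 25.0%). Without 5-HT replicate 2 there were 376 shared regions (45.2%, against 20.2%) and 459 in the 5-HT repertoire (55.2%, against 29.4%). LncRNA promoters stood above all regions in the shares of both repertoires and of shared regions. In the DA-only share they lay below all regions with every library used, and above or below them depending on the library left out.

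Another 155 regions of the DA repertoire had a peak in 1 of the 2 5-HT libraries (31.6% of the DA repertoire, against 24.5% over all regions and 17.1% at coding promoters). In 137 of these the peak was in 5-HT replicate 1 (27.9%, against 21.6% over all regions) and in 18 it was in 5-HT replicate 2 (3.67%, against 2.93%). The remaining patterns were headed by 93 regions with a peak in DA replicate 2 alone (11.2%, against 17.4% of all regions), 70 with peaks in DA replicates 2 and 3 (8.42%, against 11.6%) and 58 with a peak in DA replicate 3 alone (6.98%, against 20.3%). A peak in DA replicate 1 alone was seen in 7 regions (0.842%, against 2.07%). Peaks of 1 library were less common at lncRNA promoters than over all regions, with 22.5% against 44.5%. They were more common than at coding promoters, with 10.1%. A further 29 regions (3.49%, against 5.09% over all regions and 1.32% at coding promoters) had no peak in any DA library, 26 of them with a peak in 5-HT replicate 1 alone and 3 in 5-HT replicate 2 alone.

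Within the DA repertoire, the DA-only share was 19.8% (97 of 491, 16.5 to 23.5) at lncRNA promoters and 6.19% (761 of 12295, 5.78 to 6.63) at coding promoters. Shared regions made up 48.7% (44.3 to 53.1) of the DA repertoire at lncRNA promoters and 76.7% (75.9 to 77.4) at coding promoters. Over all regions, 38.6% of the DA repertoire was DA-only and 36.9% was shared, so lncRNA promoters were less often DA-only than all regions. Without 5-HT replicate 1 the DA-only share was 47.7% at lncRNA promoters, 22.04% at coding promoters and 60.2% over all regions, an excess of 25.6 percentage points over coding promoters in place of 13.6. LncRNA promoters lay between coding promoters and the regions outside promoters, where the DA-only share was 54.6% in coding gene bodies and 50.4% in intergenic loci. Of the 5-HT repertoire, 93.4% (239 of 256) was shared at lncRNA promoters, 98.8% at coding promoters and 89.6% over all regions. With the same number of peaks in every library, the DA-only share fell to 9.14% (17 of 186, 5.79 to 14.2) at lncRNA promoters and to 1.71% (132 of 7733, 1.44 to 2.02) at coding promoters, and it was 16.9% over all regions. The count of 5-HT-only regions then rose from 0 to 29 of 831 (3.49%) at lncRNA promoters, with 538 of 15138 (3.55%) at coding promoters and 1.79% over all regions. As a share of the 5-HT repertoire, 5-HT-only regions were then 13.6% (29 of 213, 9.65 to 18.9) at lncRNA promoters, 6.22% at coding promoters and 15.2% over all regions, so that lncRNA promoters exceeded coding promoters in both directions.

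The 2 kinds of promoter also differed in score, width and CpG content, so the DA-only share was compared within classes of each. Regions of the DA repertoire were divided into 5 equal classes by their lowest score over the 3 DA libraries, with limits taken over all 45672 regions of the DA repertoire, so that the scores of the DA libraries were ranked together as though comparable. In the class with the lowest scores (3.03 to 3.80), 46.6% (34 of 73, 35.6 to 57.9) of lncRNA and 36.0% (33.0 to 39.2) of coding promoter regions were DA-only. The middle class (4.56 to 5.71) held 17.6% (21 of 119, 11.8 to 25.5) against 6.82% (5.79 to 8.02). In the class with the highest scores (above 7.62), 0 of 98 lncRNA promoter regions, which allows up to 3.06%, and 15 of 5184 coding regions (0.289%) were DA-only. The share at lncRNA promoters thus fell with the score and lay above the coding share in the lower 4 classes, with overlapping intervals in the lowest.

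By CpG content, the DA-only share was alike at CpG-rich promoters, 2.60% (4 of 154, 1.02 to 6.49) at lncRNA and 2.23% (193 of 8667, 1.94 to 2.56) at coding promoters. At other promoters it was 27.6% (93 of 337, 23.1 to 32.6) against 15.7% (568 of 3628, 14.5 to 16.9). A promoter was called CpG-rich when the 300 bases around its TSS had a GC content of at least 50% and an observed over expected ratio of CpG of at least 0.6. By width, lncRNA and coding promoter regions under 500 bp were DA-only in 40.3% (29.0 to 52.8) and 39.0% (35.4 to 42.7). For regions of 500 to 1000 bp, which held 53 DA-only lncRNA regions, the shares were 27.0% (21.3 to 33.7) and 9.37% (8.49 to 10.3). For regions of 1000 to 2000 bp they were 9.34% (5.91 to 14.5) and 2.01% (1.69 to 2.39). In the DA-only share, lncRNA and coding promoters were therefore close to each other among CpG-rich promoters and regions under 500 bp. In the shared share they were apart there too, with 72.7% (65.2 to 79.1) against 84.0% (83.2 to 84.7) of CpG-rich promoters and 14.5% (7.83 to 25.3) against 27.5% (24.3 to 31.0) of regions under 500 bp.

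The coding DA-only share was then recomputed with the make-up of the lncRNA promoters. Weighted to the lncRNA promoters by score, it rose from 6.19% to 10.8%, by width to 9.49% and by CpG class to 11.4%. Weighted by score, width and CpG class together it was 15.4%, which leaves 4.33 of the 13.6 percentage points between the lncRNA and the coding share. No error was computed for the weighted values. With the selection restricted to lincRNA genes the lncRNA share was 12.0%. The weighted coding values do not apply to that share, since they were weighted to all lncRNA promoters. For shared regions, the same weighting took the coding share from 76.7% to 56.7%, beside 48.7% at lncRNA promoters.

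LncRNA promoter regions were narrower than coding promoter regions, with a median of 672 bp against 1040 bp. Shared lncRNA promoter regions had a median width of 1204 bp and covered the annotated TSS in 217 of 239 cases (90.8%). DA-only regions had a median of 735 bp and covered the TSS in 64 of 97 cases (66.0%), and the others overlapped the promoter without reaching the TSS, some of them by few bases. Where the region covered the TSS, 15.7% (64 of 407) of the lncRNA DA repertoire was DA-only, and where it did not, 39.3% (33 of 84). The corresponding coding shares were 4.65% and 37.2%, so that the 2 kinds of promoter were close where the TSS itself was not covered.

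The DA-only share differed between the gene types of the lncRNA promoters, and the cause was not tested. With each region given to the gene of its nearest TSS, 12.1% (29 of 239, 8.58 to 16.9) of the DA repertoire was DA-only among lincRNA genes. Another 60.3% was shared. Among processed_transcript genes the shares were 27.0% (68 of 252, 21.9 to 32.8) and 37.7%. By position, 581 regions had their nearest lncRNA TSS outside any coding gene, 219 antisense within a coding gene and 31 in the sense direction within a coding gene. The DA-only share of the DA repertoire was 15.8% (57 of 361, 12.4 to 19.9) outside coding genes, 28.3% (32 of 113, 20.8 to 37.2) for antisense TSSs and 47.1% (8 of 17, 26.2 to 69.0) for sense TSSs. The share was 12.5% (9 of 72, 6.72 to 22.1) where the nearest coding TSS lay 2000 to 5000 bp away and 24.1% (51 of 212, 18.8 to 30.2) at 20000 to 100000 bp, and these intervals overlap. On the X chromosome, 6 of 34 regions of the DA repertoire were DA-only (17.6%) and 17 were shared, near the shares for all lncRNA promoters.

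In sequence, shared and DA-only lncRNA promoters differed in CpG dinucleotides. The bases read are set by the TSS, which 33 of 97 DA-only and 22 of 239 shared regions did not cover. The 300 bases from 250 upstream of the TSS held a median of 13 CpGs in shared and 5 in DA-only lncRNA promoters, with a median GC content of 55.7% and 49.7%. All lncRNA TSSs away from coding TSSs had a median of 4 CpGs and 48.7% GC, so that DA-only promoters lay near this background and shared promoters above it. CpG-rich promoters made up 112 of 239 shared (46.9%) and 4 of 97 DA-only regions (4.12%), against 9.29% of all 3585 lncRNA TSSs away from coding TSSs. At coding promoters the shares were 77.2% of shared and 25.4% of DA-only regions. Of the shared lncRNA promoters, 127 were not CpG-rich.

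Words of 5 to 8 bases were searched on both strands of the same 300 bases. GGGCGG was found in 108 of 239 shared (45.2%, 39.0 to 51.5) and 13 of 97 DA-only lncRNA promoters (13.4%, 8.0 to 21.6), against 15.2% of all lncRNA TSSs. CGGAAG was found in 22.2% (17.4 to 27.9) of shared and 10.3% (5.70 to 17.9) of DA-only promoters, against 10.2%, and CCAAT in 39.7% and 37.1%, against 36.6%, and the intervals of the 2 classes overlap for both words. TGACGTCA was found in 11 shared promoters (4.60%) and in 0 of 97 DA-only promoters, which allows up to 3.09%, within the interval of the shared promoters (2.59 to 8.05). The words CAGCTG (16.7% of shared, 25.8% of DA-only), TATAAA (10.5%, 10.3%), TAATTA (4.60%, 5.15%), GTAAACA (3.35%, 3.09%), ACAAAG (23.8%, 21.6%) and ACAATG (10.9%, 15.5%) had overlapping intervals in the 2 classes. ACAAAG and ACAATG begin with the same 4 bases, and none of these words was counted as a binding site.

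AAGGTCA was found in 13 of 97 DA-only (13.4%, 8.0 to 21.6) and 8 of 239 shared lncRNA promoters (3.35%, 1.71 to 6.46), against 5.30% of all lncRNA TSSs. In coding promoters it was found in 5.52% of DA-only and 2.14% of shared regions, against 4.23% of all coding TSSs. The word holds AGGTCA, the half-site that many nuclear receptors bind. It had been picked earlier on DA regions of these same libraries, so its share is a description. Among the 13 DA-only promoters, the bases read at Gm15966, Gm14243, B230206F22Rik and Gm12511 lay outside the region counted. The word was thus not within those regions. DA-only promoters with the word are shown with AAGGTCA or its reverse complement TGACCTT in capitals, for the members of the 13 with the highest lowest-DA scores among those whose region covers the TSS. They are Gm3235 (chr8:94153579-94153878, minus strand), antisense within Fto, Gm12147 (chr11:43124541-43124840, minus strand), intergenic, and 8030451A03Rik (chr4:63640744-63641043, plus strand), antisense within Tnc, which holds both forms, AAGGTCA there in 2 copies that overlap by 1 base.
Gm3235: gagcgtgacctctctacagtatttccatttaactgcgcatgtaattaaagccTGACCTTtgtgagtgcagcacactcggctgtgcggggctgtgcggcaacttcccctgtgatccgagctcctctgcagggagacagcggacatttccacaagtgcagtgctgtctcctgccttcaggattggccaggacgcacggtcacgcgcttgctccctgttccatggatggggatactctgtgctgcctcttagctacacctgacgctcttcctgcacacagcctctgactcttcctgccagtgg
Gm12147: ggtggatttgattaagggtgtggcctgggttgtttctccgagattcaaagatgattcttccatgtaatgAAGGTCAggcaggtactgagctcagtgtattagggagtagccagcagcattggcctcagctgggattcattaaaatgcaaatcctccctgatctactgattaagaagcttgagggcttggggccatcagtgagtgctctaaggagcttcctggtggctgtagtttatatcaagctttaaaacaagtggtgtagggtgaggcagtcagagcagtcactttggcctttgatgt
8030451A03Rik: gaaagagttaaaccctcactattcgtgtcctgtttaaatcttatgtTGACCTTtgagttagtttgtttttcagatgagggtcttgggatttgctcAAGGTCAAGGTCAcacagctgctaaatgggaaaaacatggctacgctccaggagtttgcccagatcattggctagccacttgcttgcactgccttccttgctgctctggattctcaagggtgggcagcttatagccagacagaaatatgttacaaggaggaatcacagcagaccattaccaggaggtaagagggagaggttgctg

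The region at Gm3235 scored 6.54, 7.18 and 5.80 in DA replicates 1, 2 and 3. At Gm12147 the scores were 5.32, 5.83 and 5.01, and at 8030451A03Rik 4.69, 4.92 and 5.18. All 3 regions were at 0 in both 5-HT libraries, as the class requires.

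The DA-only regions with the highest lowest-DA scores lay at genes known by provisional names, for which no function is given here. At Gm11455, a processed_transcript gene in the sense direction within Stk4, the region chr2:163960048-163960591 scored 7.45, 8.14 and 7.67 in DA replicates 1, 2 and 3. It lay upstream of the annotated TSS without covering it. Gm14014, an intergenic processed_transcript gene, had the region chr2:106420615-106421459 over its TSS, with scores of 8.53, 6.74 and 10.0. Gm17216 on chromosome 6, whose TSS lies 2199 bp from that of the coding gene Ergic2, had a region of 348 bp beside its TSS with scores of 6.63, 8.40 and 8.48.

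Gm9783 had the region chr19:5848009-5849245 over its TSS, with scores of 7.08, 7.95 and 6.63, beside the shared region of Neat1. The lincRNA gene C330018A13Rik had the region chr5:116573438-116573679 over its TSS, with scores of 9.54, 11.8 and 6.57. All 5 regions were at 0 in both 5-HT libraries by definition. They were also DA-only at the same number of peaks, together with 5 more of the 97, namely Gm12284, 4930512H18Rik, 2210417A02Rik, Gm15945 and Gm12320. The other 7 of the 17 DA-only regions at that setting had a lower-scoring peak in 5-HT replicate 1 that the limit removed, as at Snhg12.

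The promoters of 3 of these 5, with the region over the TSS, and that of Gm15055 are shown as examples of DA-only promoters, with CpGs in capitals. They run from 250 bases upstream of the TSS in mm9. Gm14014 (chr2:106420948-106421247, minus strand) held 4 CpGs, Gm9783 (chr19:5848258-5848557, plus strand) 2, C330018A13Rik (chr5:116573373-116573672, plus strand) 10 and Gm15055 (chr6:52052698-52052997, plus strand) 8.
Gm14014: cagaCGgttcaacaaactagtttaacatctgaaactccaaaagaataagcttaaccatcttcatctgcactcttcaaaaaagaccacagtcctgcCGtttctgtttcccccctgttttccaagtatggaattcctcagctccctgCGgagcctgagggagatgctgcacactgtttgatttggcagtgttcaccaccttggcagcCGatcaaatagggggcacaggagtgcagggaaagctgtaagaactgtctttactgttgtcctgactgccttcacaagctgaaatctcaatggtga
Gm9783: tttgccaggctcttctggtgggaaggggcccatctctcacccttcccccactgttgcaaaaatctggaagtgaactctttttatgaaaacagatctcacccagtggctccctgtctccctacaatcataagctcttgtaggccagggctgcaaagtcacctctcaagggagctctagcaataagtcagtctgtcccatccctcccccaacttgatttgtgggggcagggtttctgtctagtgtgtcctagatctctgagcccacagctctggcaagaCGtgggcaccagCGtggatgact
C330018A13Rik: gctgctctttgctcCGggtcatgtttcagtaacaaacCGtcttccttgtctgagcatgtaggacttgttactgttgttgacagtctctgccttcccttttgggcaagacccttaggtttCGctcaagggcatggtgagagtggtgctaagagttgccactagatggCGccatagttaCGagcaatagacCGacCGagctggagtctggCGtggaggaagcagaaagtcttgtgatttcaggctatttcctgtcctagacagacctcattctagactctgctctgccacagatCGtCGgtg
Gm15055: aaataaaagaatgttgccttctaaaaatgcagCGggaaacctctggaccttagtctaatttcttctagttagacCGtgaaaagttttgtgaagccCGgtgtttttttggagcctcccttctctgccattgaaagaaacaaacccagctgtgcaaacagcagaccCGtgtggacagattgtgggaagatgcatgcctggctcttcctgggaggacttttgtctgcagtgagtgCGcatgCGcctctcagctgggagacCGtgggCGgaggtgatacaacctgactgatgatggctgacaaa

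The shared region with the highest lowest score over the 5 libraries lay at 2610005L07Rik on chromosome 8, with 35.4, 58.5 and 66.3 in the DA libraries and 31.9 and 17.6 in the 5-HT libraries. Its sequence has 2 other near-identical copies in the genome, so the origin of its reads is uncertain. Gm12915, antisense within Inpp5b, scored 16.05, 20.2 and 17.4 in the DA libraries and 9.72 and 11.1 in the 5-HT libraries. 5430416N02Rik scored 13.5, 16.3 and 14.5, and 11.5 and 9.36.

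At Pisd-ps1, which RefSeq lists as a transcribed pseudogene, the region chr11:3023072-3025344 upstream of the TSS scored 12.2, 12.0 and 11.3, and 9.52 and 8.67. Gm16899 on chromosome 1, with its nearest coding TSS 231340 bp away, scored 19.6, 23.0 and 25.9, and 11.3 and 8.65. The DA scores were above the 5-HT scores in each of these 5 regions, but scores of different libraries need not be on the same scale.

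Shared promoters are shown with their CpGs in capitals as examples with many CpGs, all above the shared median of 13. Gm12915 (chr4:124428549-124428848) held 28 CpGs, 5430416N02Rik (chr5:100858486-100858785) 21, Gm16899 (chr1:7387833-7388132) 25 and Miat (chr5:112657919-112658218) 25. All 4 are on the minus strand. Other shared promoters held fewer, 13 at Neat1 and 2 at Pisd-ps1, where the region did not cover the TSS.
Gm12915: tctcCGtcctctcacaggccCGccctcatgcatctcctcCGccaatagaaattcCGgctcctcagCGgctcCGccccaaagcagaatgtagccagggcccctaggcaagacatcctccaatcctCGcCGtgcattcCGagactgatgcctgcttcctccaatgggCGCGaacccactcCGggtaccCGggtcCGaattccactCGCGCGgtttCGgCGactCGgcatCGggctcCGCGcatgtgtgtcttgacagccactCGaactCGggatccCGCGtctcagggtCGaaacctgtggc
5430416N02Rik: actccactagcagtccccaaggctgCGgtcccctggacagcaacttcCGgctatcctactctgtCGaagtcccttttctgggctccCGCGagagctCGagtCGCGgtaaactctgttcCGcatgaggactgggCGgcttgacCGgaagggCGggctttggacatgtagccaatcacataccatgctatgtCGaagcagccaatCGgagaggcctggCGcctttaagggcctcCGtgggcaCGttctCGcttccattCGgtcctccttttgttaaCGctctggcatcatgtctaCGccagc
Gm16899: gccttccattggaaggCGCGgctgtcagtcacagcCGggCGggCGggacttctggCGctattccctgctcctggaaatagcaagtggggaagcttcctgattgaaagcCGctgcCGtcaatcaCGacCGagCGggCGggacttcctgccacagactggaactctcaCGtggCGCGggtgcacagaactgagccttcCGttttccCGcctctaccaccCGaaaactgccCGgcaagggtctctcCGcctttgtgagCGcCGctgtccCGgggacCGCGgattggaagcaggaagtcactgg
Miat: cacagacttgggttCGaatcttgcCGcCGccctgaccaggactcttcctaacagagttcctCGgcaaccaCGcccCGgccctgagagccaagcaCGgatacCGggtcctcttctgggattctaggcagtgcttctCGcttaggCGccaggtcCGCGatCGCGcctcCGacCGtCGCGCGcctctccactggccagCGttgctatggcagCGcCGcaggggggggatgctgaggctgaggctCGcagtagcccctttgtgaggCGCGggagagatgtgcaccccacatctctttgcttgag

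Of the 256 regions of the 5-HT repertoire, 0 lacked a peak in every DA library, which allows up to 1.17%, against 2.73% over all regions and 0.147% at coding promoters. The 17 regions of the 5-HT repertoire that were not shared had a peak in 2 DA libraries in 13 cases and in 1 DA library in 4 cases. At Gm16983 on chromosome 8, the region with the highest lower 5-HT score among these 17, the DA scores were 4.52, 3.43 and 0 (replicates 1 to 3) and the 5-HT scores 5.74 and 5.02. At Gm16267 on chromosome 12 they were 0, 3.72 and 0 in the DA libraries, and 5.79 and 2.93. In 11 of the 17 regions the peaks missing from the DA libraries were those of DA replicate 1 alone. Over all regions this was also the most common such pattern, with 832 regions, followed by 351 with DA replicate 2 as the only DA library.

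With the same number of peaks, 22 of the 29 5-HT-only regions were shared when all peaks were used. They were present in the DA libraries with scores below the limit, which lay at 5.54, 6.70 and 5.97 for the DA libraries and at 4.18 and 2.83 for the 5-HT libraries. Gm15551 on chromosome 3 had 3.45, 3.45 and 4.12 in the DA libraries and 6.14 and 3.35 in the 5-HT libraries. A region of Sox2ot was also among them.

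Of 63 lncRNA names in the lists used here, 30 belonged to a lncRNA gene with a TSS away from coding TSSs, and 20 of these had a region. The DA libraries had peaks at 19, 20 and 19 of the 30, and the 5-HT libraries at 18 and 12. These named lncRNAs were open more often than all lncRNA genes in every library. The lists were chosen with earlier results of these data known, so this is a description and no evidence about lncRNAs in general. Another 6 names were set aside because a coding TSS lay within 2 kb of each TSS, 3 are protein-coding in the annotation and 24 names were not found in it.

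Of the imprinted lncRNAs, Meg3, Airn and Nespas had a region, while H19, Rian and Mirg did not. Meg3, expressed from the maternal allele, scored 5.16, 6.91 and 5.41 in the DA libraries and 3.54 and 0 in the 5-HT libraries at the region over a TSS. Airn, the transcript that silences Igf2r on the paternal allele, scored 3.55, 4.19 and 4.15, and 3.79 and 0. Both were thus open in all libraries but 5-HT replicate 2. Nespas, antisense at the Gnas locus, was shared, with 9.90, 9.73 and 7.95, and 6.47 and 5.10.

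Neither Xist nor Tsix, the antisense pair of X inactivation, had a region in any library. The 2 lncRNAs of nuclear bodies were shared. Malat1 scored 8.19, 8.85 and 6.90 in the DA libraries and 6.76 and 4.20 in the 5-HT libraries. Neat1 scored 5.45, 8.00 and 6.48, and 4.51 and 4.31.

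All 5 snoRNA hosts with a region were open in each library except 5-HT replicate 2, and 3 of them, Gas5, Snhg5 and Snhg7, were open there too. Gas5 scored 8.24, 12.9 and 13.7 in the DA libraries and 5.61 and 6.18 in the 5-HT libraries, and Snhg5 13.9, 14.8 and 9.78, and 5.99 and 5.52. Only 5 of the 20 TSSs of Gas5 were kept, and the nearest coding TSS lay 80 bp from a TSS of this gene. The region of Gas5 lay upstream of its nearest kept TSS without covering it. Snhg12 scored 7.97, 9.58 and 11.6, and 3.59 and 0. Snhg7 scored 5.30, 7.60 and 7.16, and 4.55 and 5.86, so that its DA scores were below those of Snhg12 although it was shared.

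Of the neural lncRNAs, 9 had a region. Rmst, a lncRNA linked to Sox2 in neurogenesis, was shared, with 8.09, 7.35 and 7.31 in the DA libraries and 4.39 and 3.07 in the 5-HT libraries. Miat was shared as well, with 4.75, 6.61 and 4.32, and 3.57 and 4.25. A830082K12Rik scored 11.4, 13.6 and 12.0, and 6.76 and 5.25, and C130071C03Rik had a broad shared region of 5952 bp.

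Sox2ot, whose transcripts overlap the gene of the progenitor factor Sox2, had 5 promoter regions of different classes. The most upstream, chr3:34002890-34003700, scored 6.60, 6.47 and 9.07 in the DA libraries and 3.44 and 0 in the 5-HT libraries. The region chr3:34562682-34563770 was shared, with 3.86, 4.09 and 3.95, and 4.32 and 2.85. The region chr3:34564253-34564390 had a peak in 5-HT replicate 1 alone, with a score of 4.04. The shared region and the region with a peak in 5-HT replicate 1 alone had the same nearest TSS, chr3:34564165. The regions of this gene therefore differed in pattern over the libraries, both between TSSs and at a single TSS.

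Among the listed lncRNAs, 20 genes had a region and 3 of these had a DA-only region. Over all lncRNA promoters, 97 of 831 regions (11.7%) were DA-only. Counted by gene over all its promoters, 89 of 2625 lncRNA genes (3.39%) were DA-only. That count leaves out genes with a 5-HT peak at another promoter, such as 2610307P16Rik, and its total includes genes with no region. Neither share is counted in the same way as the 3 of 20 genes, so neither is a like comparison for them. 9630028B13Rik scored 4.95, 5.42 and 4.19 in the DA libraries at chr1:187265559-187265756. Of 5 regions of 2610307P16Rik, the DA-only one, chr13:28573067-28573525, scored 4.01, 4.56 and 3.86. Gm15055 scored 5.11, 6.16 and 6.30 at chr6:52052256-52052982.

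By name, 36 of the lncRNA genes were also in the list of abundant lncRNAs of DA neurons that accompanies the study. The DA libraries had a peak at 27, 28 and 27 of them, and the 5-HT libraries at 27 and 21. Of the 36, 21 had a shared region and 1, Gm15055, a DA-only region. Counted by gene over all its promoters, 249 of 2625 lncRNA genes (9.49%) were shared and 89 (3.39%) were DA-only. That list was drawn up from RNA of the same kind of DA neurons, and ATAC-seq peaks at the TSS took part in the choice of its transcripts, so its open promoters are no independent evidence.

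Other lncRNAs known by name were chosen after their values were seen. Dnm3os, antisense within Dnm3, was DA-only with 3.62, 3.11 and 3.90. Has2as had a DA-only region with 4.82, 4.72 and 4.29, beside a narrow region with a peak in 5-HT replicate 1 alone. Pvt1, next to Myc, was shared, with 5.85, 5.54 and 4.39 in the DA libraries and 4.38 and 3.14 in the 5-HT libraries. Tug1, both regions of Dleu2 and Mir17hg, the host of a microRNA cluster, were shared as well. Tug1 scored 11.3, 13.1 and 10.7, and 5.30 and 3.62, and Mir17hg 8.78, 9.86 and 9.27, and 6.55 and 3.76. Nkx2-2as was in neither class, with 0, 3.09 and 3.51, and 3.82 and 0. These genes say nothing about how common each class was.

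The promoters of 9030622O22Rik and 1700042O10Rik, also chosen after their values were seen, had a marker gene as the nearest coding gene. 9030622O22Rik, 5261 bp from a TSS of the floor plate factor Foxa2, had a broad region that scored 4.38, 5.40 and 4.30 in the DA libraries and 4.05 and 0 in the 5-HT libraries. 1700042O10Rik, antisense within Ddc, the gene of the decarboxylase that both transmitters need, was shared with 7.02, 11.0 and 10.3, and 6.15 and 3.26.

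Genes with several promoter regions numbered 73, and in 38 of them the regions fell into more than 1 class. B230206F22Rik on the X chromosome was the only gene with both DA-only and shared regions, 2 of each. The shared region chrX:100817281-100818071 scored 10.5, 14.5 and 14.6 in the DA libraries and 7.06 and 5.41 in the 5-HT libraries. The DA-only region chrX:100819788-100820128 scored 3.95, 5.55 and 6.68.

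Near-identical copies elsewhere in the genome, of at least 95% identity over 90% of the region, were found for 22 of the 831 regions. Of these, 1 was DA-only and 8 were shared. The region of Gm3912 on chromosome 7 had 16 other copies and a peak in DA replicate 3 alone, with a score of 4.32. The regions of 9330159M07Rik and 9430037G07Rik on chromosome 9, both shared, had 2 other copies each.

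At the limit of 2 kb, the nearest TSSs kept were those of 2210408F21Rik at 2002 bp, Gm11940 at 2021 bp and Gm15556 at 2022 bp from a coding TSS. The region of 2210408F21Rik scored 0, 4.91 and 3.35 in the DA libraries and 0 in both 5-HT libraries, and that of Gm11940 was shared with 5.32, 6.80 and 5.72, and 3.96 and 3.06. Just inside the limit and left out were Gm16188 at 1975 bp, a TSS of A530040E14Rik at 1959 bp and Gm16104 at 1934 bp. Their regions had peaks in DA replicate 2 alone, in all 3 DA libraries and, for Gm16104, in 5-HT replicate 2 alone. A530040E14Rik remained among the 97 DA-only regions through another TSS, with the region chr1:85101513-85102859. In addition, 7 of the 831 regions reached from a retained lncRNA promoter into a coding promoter.

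The classes rest on 3 DA and 2 5-HT libraries, and 5-HT replicate 2 held the fewest peaks, so a region without a 5-HT peak may be closed or may have been missed. Differences in peak number, in the number of sorted cells, in cell composition and in accessibility cannot be told apart in these data. The direction of the difference in open lncRNA genes depended on how peak number was handled. As a share of the DA repertoire, the DA-only excess at lncRNA promoters over coding promoters was also seen at the same number of peaks. Over all regions of each set, the DA-only shares were then 2.05% at lncRNA and 0.872% at coding promoters. Over genes they were 0.61% (0.38 to 0.99) for lncRNA and 0.42% (0.34 to 0.52) for coding genes, with overlapping intervals. With all peaks the excess within the DA repertoire narrowed when score, width and CpG class were weighted alike. At the same number of peaks, a 5-HT-only excess was seen too, but only as a share of the 5-HT repertoire. Over all regions of each set the 5-HT-only shares were alike (3.49% at lncRNA and 3.55% at coding promoters). Over genes the lncRNA share was the lower (1.1% against 2.2%). Whether the open promoters were transcribed was not tested.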

How the data were processed

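ATAC-seq peaks of 3 DA and 2 5-HT libraries were analysed, and the RNA-seq samples were not used here. Per the submitters' notes and the methods of the study, the authors used Trimmomatic for trimming, Bowtie2 for alignment (mm9), Picard for duplicates, MACS2 for peak calling and BEDOPS to join neighbouring peaks, with no versions stated. The values used are the score that the authors deposited for every region in each of the 5 libraries, on a scale left unnamed, where 0 means no peak. No calling threshold is given. A misspelled chromosome name in 1 line was corrected.

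Presence was a score above 0. Promoters came from GENCODE vM1 (NCBIM37, that is mm9), with every transcript start of a gene. A repertoire held the regions with a peak in every library of its group. Means were compared by exact permutation tests over libraries and regions were not tested, since they are not replicates. Wilson intervals are at 95%, and a count of 0 allows up to 3 counts. Where a region met several promoters, the TSS nearest its centre gave its gene, position and sequence. The planned share of soft-masked bases was not computed, because the genome sequence used is in capitals throughout. Alternatives covered the number of peaks, merging, TSS choice, promoter size, distance to coding TSSs, overlap, score, gene type and leaving out each library. Named lncRNAs were those of fixed lists, the 5 highest-scoring regions of the DA-only and shared classes those next to the 2 kb limit, examples from the other classes and words described, and some chosen after their values were seen, as the text says. Members and lists were chosen with earlier results of these data known. Python 3.11.15, NumPy 2.4.6, pandas 2.3.3, SciPy 1.17.1 and BLAST+ 2.17.0 were used, and the computations were tested on simulated data.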

Additional observations from a re-analysis of the deposited data

How the results depend on the processing

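Over the 12 settings other than leaving out a library, the excess of open lncRNA promoters in DA neurons kept its direction except at the same number of peaks, where it was -1.28 percentage points. The log2 odds difference stayed above 0, from 0.04 to 0.62, and was 0.24 with lincRNA genes only. For both, the exact permutation p rose to 0.2 with the promoter from 2 kb upstream to 500 bp downstream and with scores at or above each library's median. At the same number of peaks there were 17 DA-only regions (9.14% of the DA repertoire, 7.43 points above coding promoters) and 142 shared regions. With lincRNA genes only there were 29 DA-only (12.0%, 5.85 points above coding promoters), 145 shared and 150 5-HT repertoire regions, and the cause of the lower share was not tested. With the region's centre required in the promoter, 148 regions were shared and 158 were in the 5-HT repertoire. With scores at or above each library's median, 123 were shared, 129 were in the 5-HT repertoire and the DA-only share was 28.0%.

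Leaving out each library in turn gave differences from 6.04 to 12.7 percentage points and from 0.31 to 0.64 on the log2 scale. DA-only regions ranged from 104 to 234, shared regions from 239 to 376, the 5-HT repertoire from 256 to 459, the DA-only share from 20.8% to 47.7% and its excess over coding promoters from 14.3 to 25.6 points. The DA-only count reached 234 without 5-HT replicate 1 and 167 without DA replicate 1, and the shared and 5-HT counts reached 376 and 459 without 5-HT replicate 2. These follow in part from the definitions, as fewer libraries must agree.

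Replicate numbers 1 and 2 occur in both groups, and nothing says that they pair libraries. With the numbers as a replicate block, the differences were 8.97 percentage points and 0.44 on the log2 scale, each with p = 0.5 in an exact test over 2 pairs, the smallest possible. Deviations of same-numbered libraries from their group means correlated at 0.0893 for number 1 and 0.00949 for number 2 over all regions. The 2 settings chosen after seeing the data, without genes that RefSeq lists as protein-coding and without regions with copies, changed none of the 7 results by these marks. Library differences were marked by direction alone, as p cannot reach 0.05 in exact tests of so few libraries, so the log2 odds difference of 0.04 counts as unchanged although small. Counts were marked as moved beyond 1.5 times and shares outside the 95% interval. Of 114 values, 91 were unchanged by these marks. Exact permutation tests of 3 against 2 libraries cannot go below p = 0.1, and unknown depth limits every count.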
